A study of Arabidopsis thaliana with 8 samples.

Results

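LHB1B2, PSAN, PSBW, PSBY and NdhS are 5 nuclear genes for subunits of the complexes that run the light reactions of photosynthesis. They were taken by locus (AT2G34420, AT5G64040, AT2G30570, AT1G67740 and AT4G23890) from the probes that the platform annotation assigns to exactly 1 gene. These 5 are among 692 such probes in a table of 3439, and each gene has 1 probe. The table holds total RNA of wild-type Arabidopsis thaliana, ecotype Columbia 0, the common laboratory strain, from plants aged 4 weeks (4 arrays) and plants aged 3 weeks (4 arrays). The labels name no treatment, transgene or mutation. The organ, the growth conditions and the array type are not stated there. Nor do the labels state that separate plants were used for each array, so the p-values below reflect variation between these arrays alone, and that variation may be technical. In RNA of whole samples, fewer cells of a type and less RNA per cell cannot be told apart. None of the 12 flower and root marker genes that were looked up had a probe of its own.

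In the thylakoid membranes of the chloroplast, antenna proteins bind chlorophyll and pass the energy of light to photosystem II, which takes electrons from water, and to photosystem I, which hands them on to ferredoxin. The chloroplast NDH complex returns some electrons from ferredoxin to the plastoquinone pool, a cyclic route around photosystem I. The subunits described here are made in the cytosol and imported into the chloroplast, while the reaction centre proteins are made inside it. LHB1B2 encodes a protein of the Lhcb1 type, a main component of the trimeric antenna LHCII. PSAN encodes a subunit on the lumen side of photosystem I, where plastocyanin docks. PSBW and PSBY encode small membrane proteins of photosystem II. PSBW helps to hold photosystem II and LHCII together, and PSBY is made as a precursor that is cut into a pair of related peptides. NdhS, also called CRR31, is the subunit at which ferredoxin docks on the NDH complex.

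The values are array intensities on a linear scale with no stated unit. They summed to between 3176 and 3359 per array at 4 weeks and between 2882 and 3084 at 3 weeks, but were spread differently over the probes. The array medians lay between 0.39 and 0.445 at 4 weeks and between 0.0239 and 0.0308 at 3 weeks, and 13.4% to 13.7% of probes were listed at 0 at 4 weeks, against 26.9% to 32% at 3 weeks. All 5 genes were above 0 and below the ceiling of 100 on all 8 arrays. Because the 2 ages have different distributions, each gene is given by its deposited intensity, by its rank within its own array, which no rescaling that keeps the order of the probes can alter, and by a log2 difference after quantile normalization. That normalization gives all arrays the same distribution, so its differences are changes relative to the other probes. "Rose" and "fell" are used for it in limma's test, at a Benjamini-Hochberg adjusted p below 0.05 over all 3439 probes.

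All 5 genes passed that test, where 56.6% of all probes did: 3 fell, against 27.4% of all probes, and 2 rose, against 29.2%. LHB1B2, PSAN and PSBY were lower at 4 weeks, and PSBW and NdhS were higher. In deposited intensity the 4-week and 3-week values of all 5 did not overlap, which held for 77.0% of all probes (68.3% higher and 8.69% lower at 4 weeks). Within-array ranks did not overlap for any of the 5 either, against 68.0% of all probes (30.8% ranked higher and 37.2% ranked lower at 4 weeks). Passing the test is therefore common in these data, and the 5 genes are described by size, rank and scaling.

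**Figure D1:**
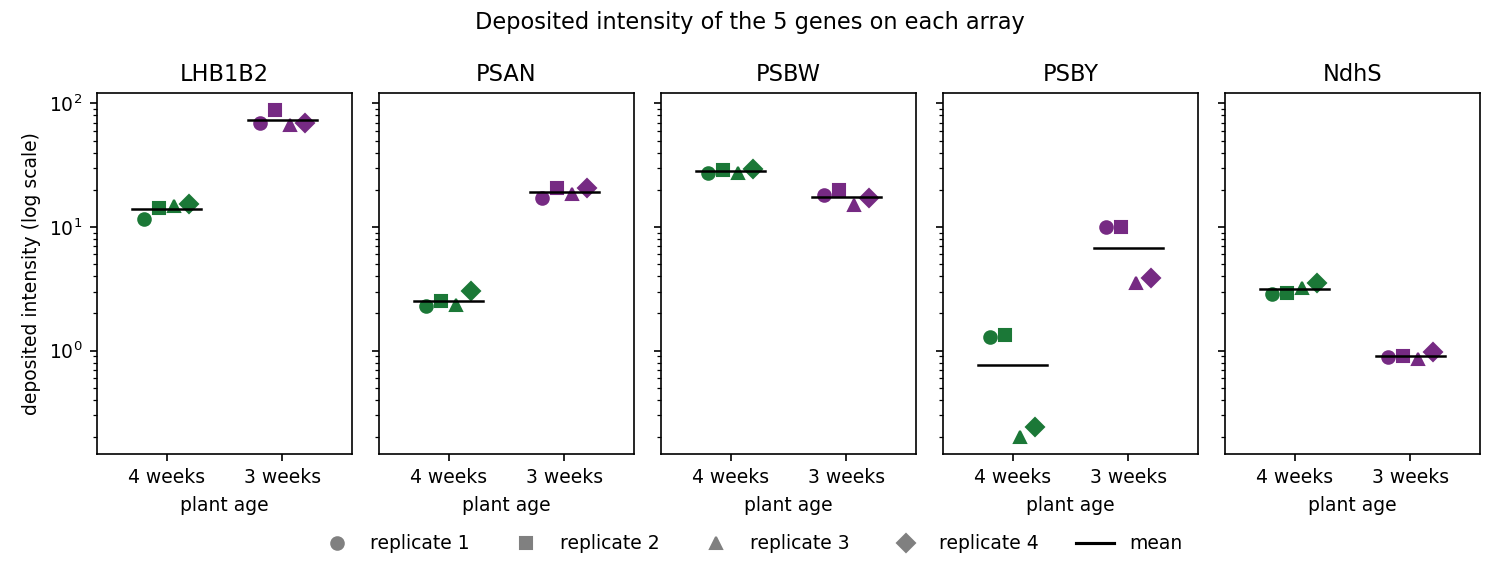
Deposited intensity (log axis) of each gene on the 4 arrays of 4 weeks (green, left) and the 4 of 3 weeks (purple, right), with marker shape for the replicate number and a line at the mean. LHB1B2, PSAN and PSBY lie lower at 4 weeks, PSBW and NdhS higher, and PSBY separates replicates 1 and 2 from replicates 3 and 4 at both ages.

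The antenna gene LHB1B2 had intensities of 11.5, 14.2, 14.7 and 15.3 at 4 weeks and 69.7, 88.6, 66.4 and 69.3 at 3 weeks, listed here and below from replicate 1 to replicate 4. Every 4-week value was far below every 3-week value, and replicate 2 of 3 weeks stood above the other 3. The means were 13.9 ± 1.7 at 4 weeks and 73.5 ± 10.1 at 3 weeks (SD, n = 4 each), a 5.28-fold lower deposited intensity at 4 weeks. After quantile normalization LHB1B2 fell by 1.52 on the log2 scale (SE 0.11, limma adjusted p = 2.63e-05). It remained one of the brightest probes, at ranks 27 to 35 from the top at 4 weeks and 10 to 12 at 3 weeks. The Lhcb1 type has several closely related gene copies in Arabidopsis. The annotation gives this probe to LHB1B2 alone, and whether it also took up RNA of the other copies was not tested.

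PSAN, of photosystem I, had intensities of 2.3, 2.52, 2.32 and 3.01 at 4 weeks and 17.2, 20.6, 18.6 and 20.5 at 3 weeks. The ages were far apart and the arrays of an age close together. The means were 2.54 ± 0.333 at 4 weeks and 19.2 ± 1.62 at 3 weeks, 7.57-fold lower in deposited intensity. After normalization PSAN fell by 2.64 on the log2 scale (SE 0.16, limma adjusted p = 8.46e-06). It stood at ranks 105 to 150 at 4 weeks and 32 to 39 at 3 weeks.

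PSBW, of photosystem II, had intensities of 27.3, 29.1, 27.2 and 29.5 at 4 weeks and 18.1, 19.9, 15.1 and 17 at 3 weeks. Its mean was 28.3 ± 1.23 at 4 weeks and 17.5 ± 2.0 at 3 weeks, a ratio of 1.61. After normalization PSBW rose by 1.74 on the log2 scale (SE 0.07, limma adjusted p = 1.34e-06). With ranks 12 to 15 at 4 weeks and 37 to 39 at 3 weeks, it was the brightest of the 5 probes on each 4-week array. The relative spread over arrays was smaller than that of the other 4 genes at 4 weeks, with a coefficient of variation of 4.36%.

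PSBY, the other photosystem II gene, had intensities of 1.3, 1.34, 0.199 and 0.242 at 4 weeks and 9.99, 9.91, 3.53 and 3.85 at 3 weeks. Replicates 1 and 2 lay together and above replicates 3 and 4 at both ages, and even so the ages did not overlap. The means were 0.771 ± 0.636 at 4 weeks and 6.82 ± 3.62 at 3 weeks, 8.85-fold lower in deposited intensity. PSBY fell by 3.96 after normalization (SE 0.82, limma adjusted p = 0.00501), a call that was lost when replicates 1 and 2, and 3 and 4, were averaged before the fit (adjusted p = 0.119). Among replicates 1 and 2 the mean was 1.32 at 4 weeks and 9.95 at 3 weeks, 7.53-fold lower. Among replicates 3 and 4 it was 0.221 at 4 weeks and 3.69 at 3 weeks, 16.7-fold lower. Fitted on their own in limma, replicates 1 and 2 gave a log2 difference of -3.13 (adjusted p = 0.000319) and replicates 3 and 4 one of -4.85 (adjusted p = 0.000528). These 2 fits leave out the spread between replicates 1 and 2 and replicates 3 and 4. Their p-values therefore do not bear on the call lost after averaging. On 1 array, replicate 3 of 4 weeks, the normalized value lay under the floor of 0.123 that was set before taking logarithms, so that the floor limits the log2 difference there.

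NdhS, of the NDH complex, had intensities of 2.88, 2.91, 3.23 and 3.51 at 4 weeks and 0.893, 0.906, 0.85 and 0.97 at 3 weeks. The lowest 4-week value was well above the highest 3-week value. The means were 3.14 ± 0.295 at 4 weeks and 0.905 ± 0.0495 at 3 weeks, a ratio of 3.47. NdhS rose by 1.33 after normalization (SE 0.13, limma adjusted p = 0.000105). It stood at ranks 89 to 120 at 4 weeks and 235 to 254 at 3 weeks, the dimmest of the 5 probes on each 3-week array.

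**Figure D2:**
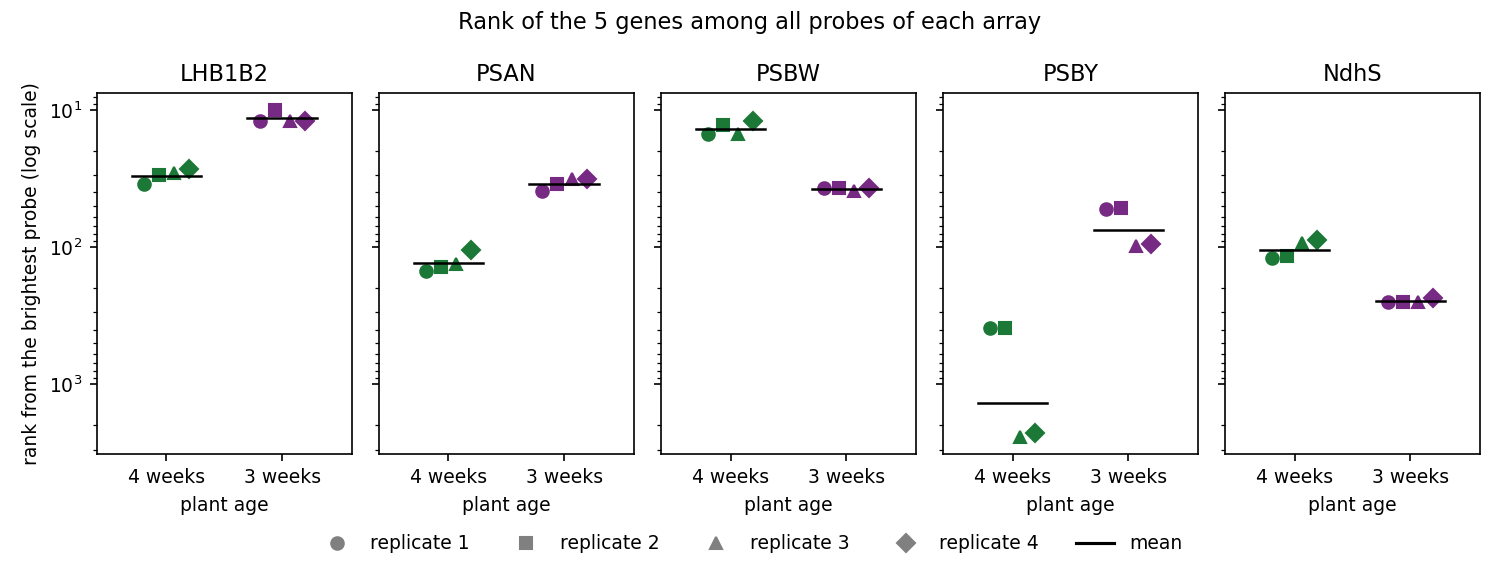
Rank of each gene among the 3439 probes of each array, counted from the brightest (log axis, brightest at the top), at 4 weeks (green, left) and 3 weeks (purple, right), with a line at the mean. PSBW lies at ranks 12 to 15 at 4 weeks and 37 to 39 at 3 weeks, while PSBY reaches rank 2442 on 1 array of 4 weeks.

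Expressed as a percentile of the array, where 100 is the brightest probe, LHB1B2 averaged 99.1 at 4 weeks and 99.7 at 3 weeks, and PSBW 99.6 at 4 weeks and 98.9 at 3 weeks. PSAN averaged 96.2 at 4 weeks and 99.0 at 3 weeks, and NdhS 97.0 at 4 weeks and 92.8 at 3 weeks. PSBY had the widest change, with percentiles of 88.7, 88.7, 29.0 and 33.7 at 4 weeks and 98.5, 98.5, 97.2 and 97.3 at 3 weeks. It thus stayed in the brighter part of the array in replicates 1 and 2 of 4 weeks and lay below the median probe in replicates 3 and 4. For each of the 5 genes a two-sided exact permutation test of the mean percentile gave p = 0.0286, the smallest that 4 arrays against 4 can give. That test treats the 4 arrays of an age as separate. With replicates 1 and 2, and 3 and 4, taken as 1 unit each, the smallest exact p would be 0.333.

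The order of the 5 signals on an array was the same on all 4 arrays of 4 weeks, with PSBW first, then LHB1B2, NdhS, PSAN and PSBY. On the arrays of 3 weeks LHB1B2 came first, PSBY next to last and NdhS last. PSAN and PSBW lay between them at 3 weeks and changed places on replicate 1, so they did not differ beyond their spread there, with a mean log2 ratio of PSAN over PSBW of 0.14 (SD 0.18). These are orders of probe signals, and they do not rank the amounts of the transcripts, since each probe binds its own RNA differently.

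A ratio of a pair of genes on the same array cancels any factor by which that array was multiplied, so its change shows unequal change of the pair without a choice of scaling factor. An additive background or a bend in the signal would not cancel. All 10 pairs were compared over the 8 arrays with a two-sided exact permutation test, and 8 passed at the smallest p the design allows (0.0286, adjusted over the 10 pairs 0.0357). The pairs share genes, so they are not independent of each other. The test also treats the 4 arrays of an age as separate, although replicates 1 and 2, and 3 and 4, resembled each other. With each of these taken as 1 unit, the smallest exact p would be 0.333 and no pair could pass. How often pairs of other probes pass was not tested, and single probes often separated by age (77.0% in deposited intensity). The count of 8 therefore does not set these genes apart from other probes. LHB1B2 over PSBW had ratios of 0.421, 0.487, 0.543 and 0.519 at 4 weeks and 3.85, 4.45, 4.39 and 4.08 at 3 weeks. The antenna signal was thus below that of PSBW on every 4-week array and above it on every 3-week array, a shift of 8.54-fold. PSAN over PSBW shifted 12.3-fold in the same direction, with ratios of 0.0842 to 0.102 at 4 weeks and 0.953 to 1.23 at 3 weeks.

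Against NdhS, the 3 genes that fell shifted by 18.2-fold to 38.9-fold. The ratio of PSAN to NdhS was 0.718 to 0.867 at 4 weeks and 19.3 to 22.8 at 3 weeks, a shift of 26.3-fold. LHB1B2 over NdhS was 3.98 to 4.87 at 4 weeks and 71.5 to 97.8 at 3 weeks, a shift of 18.2-fold. PSBY over NdhS shifted 38.9-fold, with ratios of 0.452, 0.46, 0.0616 and 0.0689 at 4 weeks and 11.2, 10.9, 4.15 and 3.97 at 3 weeks. Each of these ratios was lower at 4 weeks on all arrays.

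The 2 photosystem II genes moved apart. PSBW over PSBY had ratios of 20.9, 21.7, 136 and 122 at 4 weeks and 1.81, 2.01, 4.29 and 4.41 at 3 weeks, a shift of 18.2-fold in which no 4-week value overlapped a 3-week value. The genes that were higher at 4 weeks also differed, since PSBW over NdhS was 8.39 to 9.99 at 4 weeks and 17.5 to 22 at 3 weeks, a log2 change of -1.09 that turned to 0.41 on quantile-normalized values. LHB1B2 and PSAN, both lower at 4 weeks, differed by 1.44-fold, with ratios of 5.0 to 6.34 at 4 weeks and 3.38 to 4.29 at 3 weeks. The 2 pairs that did not pass were those of PSBY with LHB1B2 and with PSAN. For LHB1B2 over PSBY the log2 change was 1.09, between 0.58 and 1.61 when 1 array was left out (exact permutation adjusted p = 0.349). For PSAN over PSBY it was 0.56, between 0.09 and 1.04 when 1 array was left out (exact permutation adjusted p = 0.6). The spread of PSBY over replicates is wide, so these values do not show that the 3 genes changed alike. Taken by replicate number, LHB1B2 over PSBY was 8.81, 10.6, 73.9 and 63.4 at 4 weeks and 6.98, 8.94, 18.8 and 18 at 3 weeks, higher at 4 weeks in all 4 pairs (exact permutation within numbers, p = 0.125, the smallest that 4 pairs can give). For PSAN over PSBY the same exact permutation gave p = 0.375.

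**Figure D3:**
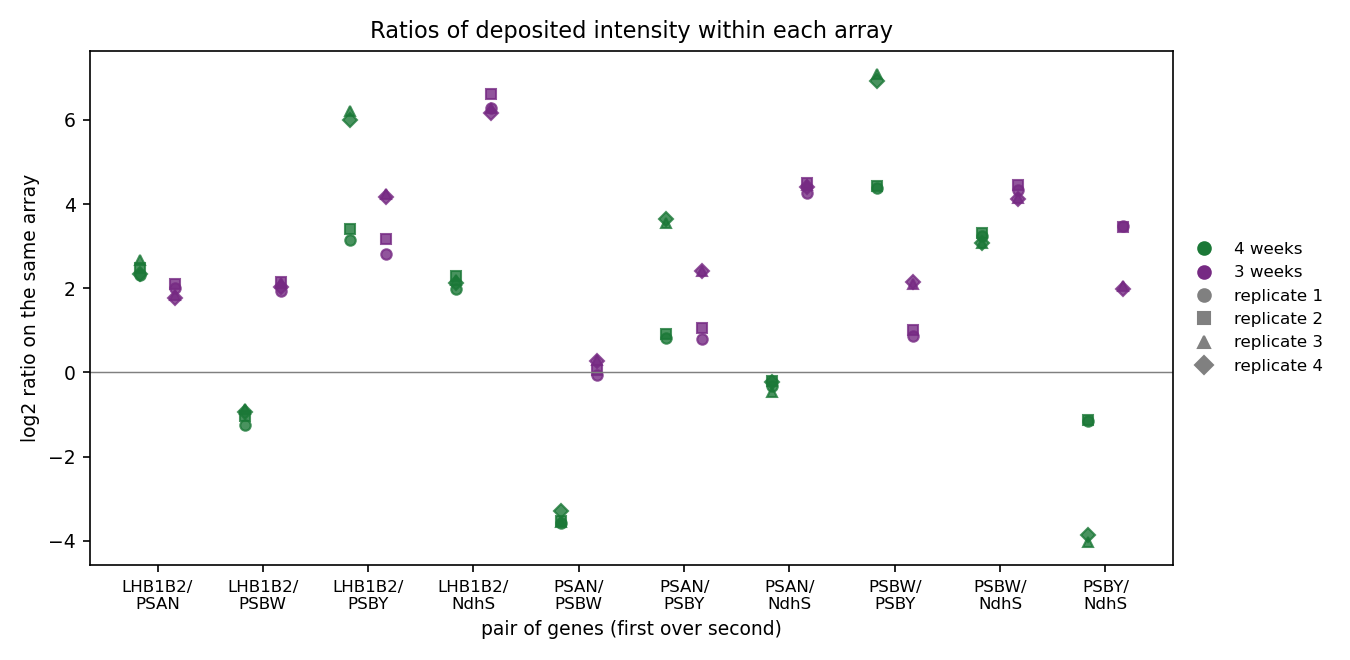
Ratio of deposited intensities of each pair of genes on the same array (log2 axis, first gene over second), with the 4 arrays of 4 weeks in green on the left and the 4 of 3 weeks in purple on the right of each position. The ages separate in 8 pairs, and they overlap for LHB1B2 over PSBY and PSAN over PSBY.

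The sign of a single gene's difference depended on the scaling for 3 of the 5. PSAN and PSBY were lower at 4 weeks after quantile normalization, without scaling, after dividing each array by its median and after cyclic loess, with log2 differences for PSAN of -2.64, -2.93, -6.86 and -0.60 and for PSBY of -3.96, -3.49, -7.43 and -3.16. LHB1B2 was lower under the first 3 (-1.52, -2.40 and -6.33) and higher after cyclic loess (1.83, limma adjusted p = 0.00025). PSBW was higher after quantile normalization, without scaling and after cyclic loess (1.74, 0.70 and 4.49) and lower after dividing by the median (-3.24). NdhS followed the same pattern, with 1.33, 1.79 and 2.0, against -2.14 after dividing by the median. The median log2 difference of all probes was 0 after quantile normalization, 1.28 without scaling, -0.09 after dividing by the median and 0.01 after cyclic loess. Relative to that median, PSBW was at -0.59 and NdhS at 0.51 without scaling. The floor of 0.123 was also applied without scaling, and the array medians at 3 weeks (0.0239 to 0.0308) lay below it. The median difference of 1.28 is therefore limited by the floor. Whether NdhS lay above or below the typical probe without scaling cannot be read from the 0.51.

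**Figure D4:**
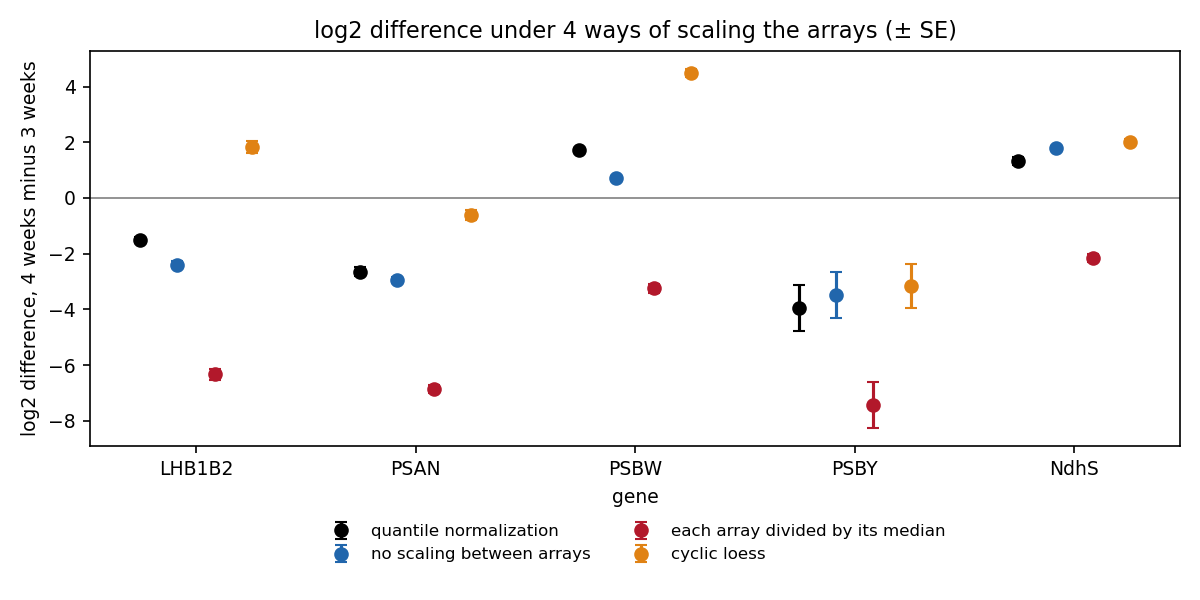
Difference in log2 intensity, 4 weeks minus 3 weeks, of each gene under 4 ways of scaling the arrays, with bars of ± SE from limma. PSAN and PSBY stay below 0 under all 4, LHB1B2 is above 0 under cyclic loess, and PSBW and NdhS are below 0 after dividing by the array median.

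The typical probe was much dimmer at 3 weeks, which enters directly when an array is divided by its median. PSBW lay at 67.8 times the array median at 4 weeks and at 650 times at 3 weeks, and NdhS at 7.56 times at 4 weeks and 33.3 times at 3 weeks. LHB1B2 was at 33.6 times the median at 4 weeks and at 2720 times at 3 weeks, and PSAN at 6.11 times at 4 weeks and 706 times at 3 weeks. By that measure all 5 genes were lower at 4 weeks.

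Lower values at 4 weeks were usual among probes bright at 3 weeks, 92 of the 100 brightest at 3 weeks having a lower deposited mean at 4 weeks. Picking probes by their 3-week values, which also enter this comparison, itself favours lower values at 4 weeks. By how much was not tested. Each gene was therefore set beside the 50 probes nearest to it in mean rank at 3 weeks, 25 above and 25 below (36 in all for LHB1B2, which has 11 above it). The values describe the position of the gene and carry no test. The comparison sets of PSAN and PSBW share 49 probes, and those of LHB1B2 and PSAN share 26. For LHB1B2 the log2 ratio of deposited means, 4 weeks over 3 weeks, was -2.40, beside a median of -2.21 in its neighbours (quartiles -2.90 and -1.86). Of the 36 neighbours 15 had a lower ratio and 21 a higher one. With neighbours taken from probes with exactly 1 gene, of which 1 was brighter than LHB1B2 at 3 weeks, 5 of 26 had a lower ratio and the median was -1.65. The position of the antenna gene thus depends on which probes it is set beside.

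PSAN had a log2 ratio of -2.92, beside -2.57 in its neighbours, of which 13 of 50 had a lower ratio. For PSBY it was -3.14, beside -2.19, with 6 of 50 lower. In this ratio both lay on the lower side of their sets. By rank PSAN lay near the middle, with a change of -2.83 percentile points beside a median of -2.19, 23 of 50 neighbours dropping further. In the wider set of 85 neighbours 46 dropped further than PSAN. The position of PSBY differed between replicates. In replicates 1 and 2 its rank dropped by 9.83 percentile points, against a median of -9.89 in its neighbours, 25 of 50 dropping further. In replicates 3 and 4 it dropped by 65.8 points, against a median of -8.51, and 0 of 50 neighbours dropped further.

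PSBW stood at the other end, with a log2 ratio of 0.69 beside a median of -2.58, and 3 of its 50 neighbours had a higher ratio. Of the neighbours of PSBW 45 had a lower deposited mean at 4 weeks. NdhS had a log2 ratio of 1.79 beside a median of -0.69, with 8 of 50 neighbours higher. Its rank was 4.19 percentile points higher at 4 weeks, and the median difference of its neighbours was -36.2 points. With neighbours taken by mean rank over both ages, a choice made after seeing the data, that median was -1.26 points. In those sets 16 of 50 neighbours had a higher ratio than NdhS, and 10 of 43 a higher ratio than PSBW. The median log2 ratio of these neighbours was 0.15 for NdhS and -1.99 for PSBW.

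**Figure D5:**
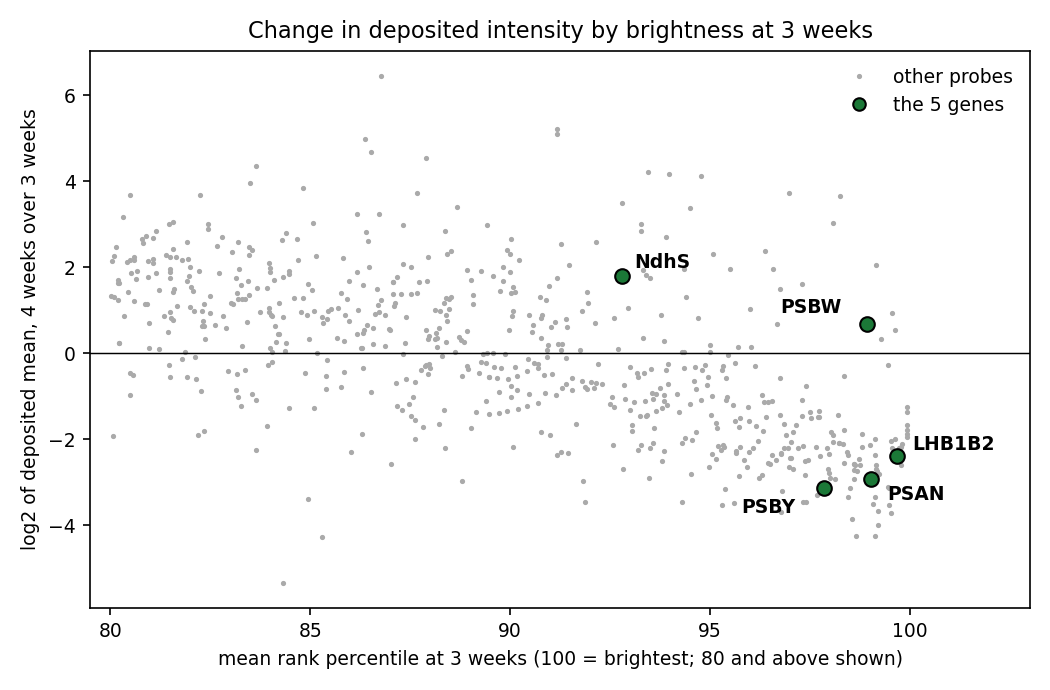
Each point is a probe, with its mean rank percentile at 3 weeks (percentile 80 and above, 666 probes) against the log2 of its deposited mean at 4 weeks over that at 3 weeks, and the 5 genes are marked. LHB1B2, PSAN and PSBY lie in the band of bright probes below 0, and PSBW and NdhS lie above 0 where most probes of their brightness do not.

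The spread over the arrays of an age was widest for PSBY. Its coefficient of variation was 82.5% at 4 weeks and 53.1% at 3 weeks, and 0 of its 50 neighbours exceeded it at either age, their medians being 9.86% at 4 weeks and 11.9% at 3 weeks. For LHB1B2, PSAN, PSBW and NdhS it was 4.36% to 13.1% at 4 weeks and 5.47% to 13.8% at 3 weeks. The mean of replicates 1 and 2 of PSBY was 5.99 times that of replicates 3 and 4 at 4 weeks and 2.7 times at 3 weeks. Among the 1840 probes above 0 on all arrays, 23 (1.25%) showed a ratio of at least 2 in that direction at both ages, and 4 in the opposite direction. At least the ratios of PSBY were reached by 5 others, of which 1 has a single gene, AT2G44760, with ratios of 6.16 at 4 weeks and 44.6 at 3 weeks. AT2G44760 was chosen after its values were seen. Over all probes, too, arrays numbered 1 and 2 and arrays numbered 3 and 4 were the most alike, with Spearman correlations across probes of 0.974 and 0.962 at 4 weeks, where other combinations gave 0.92 to 0.929. At 3 weeks they were 0.885 and 0.876, against 0.845 to 0.87. The labels do not say what the numbers stand for, and their part in the PSBY values was not tested.

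Of 64 nuclear loci listed for the antenna, both photosystems and the NDH complex, 6 had a probe of their own, the 5 genes and NdhN, and 3 others lay only on probes shared by several genes. NdhN, another NDH subunit, was listed at 0 on all 4 arrays of 4 weeks and at 0, 0.0526, 0 and 0.046 on those of 3 weeks. Its log2 difference of -0.61 did not pass (limma adjusted p = 0.177), and no fold is given because NdhN was listed at 0 at 4 weeks. Of the 6, 2 rose, 3 fell and 1 did not pass, and their median log2 difference was -1.06, beside 0 for all probes. In the photosystem II list 2 of 12 loci were measured, in the photosystem I list 1 of 13, in the antenna list 1 of 21 and in the NDH list 2 of 18. The complexes are thus represented by 1 or 2 genes each.

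Downstream of the light reactions, 2 of 13 Calvin cycle loci had a probe, and 0 of 14 loci for electron carriers and ATP synthase. PRK, the phosphoribulokinase that makes the acceptor of carbon dioxide, had intensities of 1.04, 1.06, 0.786 and 0.909 at 4 weeks and 8.19, 8.76, 5.89 and 6.09 at 3 weeks. PRK fell by 3.33 on the log2 scale (SE 0.11, limma adjusted p = 4.37e-07). SBPASE, sedoheptulose bisphosphatase of the same cycle, was listed at 0 on all arrays except replicate 4 of 3 weeks, at 0.00689.

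For each of the 5 genes the 3 most similar profiles were sought among 254 probes with 1 gene that lay above the floor on all 8 arrays, by the Euclidean distance over 8 arrays between log2 normalized profiles centred on their own means. A distance of 0 would mean the same change on every array. Since 2 ages dominate these profiles, many genes correlate, and the values are a description. The nearest to LHB1B2 were CCL (distance 0.349), AT5G38360 (0.452) and AT3G26630 (0.476). AT5G38360 had a deposited mean of 17.4 ± 2.48 at 4 weeks and 81.5 ± 3.91 at 3 weeks, close to LHB1B2 in size at both ages. CCL, by contrast, had 0.537 ± 0.032 at 4 weeks and 0.534 ± 0.0585 at 3 weeks, nearly equal deposited means beside a normalized log2 difference of -1.68. The nearest to PSAN were AT1G33250 (0.392), AT3G15900 (0.489) and AT3G25410 (0.525), with log2 differences between -2.73 and -2.46.

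The nearest to NdhS were AT4G22830 (0.193), AT5G10920 (0.249) and AT1G73120 (0.295). AT4G22830 had 35.9 ± 6.57 at 4 weeks and 28.7 ± 1.06 at 3 weeks, and AT5G10920 had 1.88 ± 0.106 at 4 weeks and 0.299 ± 0.0169 at 3 weeks. The nearest to PSBW were AT2G32040 (0.558), AT4G17650 (0.574) and again AT1G73120 (0.606), with log2 differences between 1.37 and 1.46, all smaller than that of PSBW. For PSBY the nearest profiles were farther away, with AT3G54210 at a distance of 2.54, HEMA3, a glutamyl-tRNA reductase gene of tetrapyrrole synthesis, at 2.79, and PRK at 2.82. PSBY itself lay at the floor on 1 array of 4 weeks, and probes that reached the floor on any array were not candidates. Its larger distances therefore cannot be read apart from that filter. AT3G54210 had 0.757 ± 0.548 at 4 weeks and 1.45 ± 0.69 at 3 weeks, a wide spread at both ages like that of PSBY.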

How the data were processed

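The members and the gene lists were chosen with earlier results of these data known. The authors deposited a single table of intensity values, with a column for each of the 8 samples. How they were scaled or background-corrected is not given in the sources used; from the values, each array runs from 0 to a ceiling of 100. Of 3439 probes, 692 have 1 gene in the platform annotation, 870 several and 1877 none given. Symbols were looked up by Entrez number in RefSeq's gene list for TAIR10.1 (690 of 692 found). No sequences or coordinates were used.

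Intensities were quantile-normalized, raised to a floor (0.123, the mean over arrays of the value at rank 1099, which is how many probes were at 0 on the array richest in zeros) and converted to log2. The test across all probes was limma's (version 3.58.1, under R 4.3.3; lmFit and eBayes, two-sided, age alone). Its script was also run on simulated data, where whole arrays were multiplied by unequal factors. The simulated ages did not differ in the shape of their distribution as the ages do here, so that run does not bear on the choice of scaling. Ranks and within-array ratios used the deposited intensities. The named genes are the 5 members, every other listed locus with its own probe and the 3 most similar profiles per member; AT2G44760 was named outside this rule, after its values were seen. Alternatives were 3 other scalings, 2 treatments of low values, moderated variance with a trend, left-out and averaged arrays and the replicate number as a block. Deviations from the age means correlated at 0.171, 0.213, 0.171 and 0.236 between arrays of the same number (1 to 4). Between numbers 1 and 2 of opposite ages they correlated at 0.0998 and 0.106, and between 3 and 4 at 0.0984 and 0.0515. The other combinations gave -0.184 to -0.0876. These values therefore also follow the split of replicates 1 and 2 from 3 and 4. The numbers were taken as pairs only in the alternatives with a block and the permutations within numbers. The main limma fit and the main exact tests were unpaired. The number of arrays limits the precision, and signal over background could not be computed.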

Additional observations from a re-analysis of the deposited data

Results flagged for a closer look

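In 1 of the 10 groups of 4 arrays examined (5 genes at 2 ages) a single array lay far from the others, where chance gives about 0.5. For LHB1B2 at 3 weeks the gap between replicate 2, at an intensity of 88.6, and the next array, at 69.7, took up 0.851 of the range, above Dixon's critical value for 4 values. Without that array the log2 difference of LHB1B2 was -1.40.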

How the results depend on the processing

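Under 18 alternatives per gene, all 5 differences kept their direction and stayed past the threshold, except that LHB1B2 turned to 1.83 under cyclic loess, that PSBW turned to -3.24 and NdhS to -2.14 after dividing by the array median, and that PSBY, at -3.96, had an adjusted p of 0.119 with replicates 1 and 2, and 3 and 4, averaged. The highest limma adjusted p over the alternatives was 0.0123 for LHB1B2, 0.0469 for PSAN, 0.00485 for PSBW and 0.029 for NdhS, and that of PSBY ranged from 0.000188 to 0.119. With the replicate number as a block the adjusted p was 0.00129 for LHB1B2, 0.000185 for PSAN, 0.000197 for PSBW, 0.00428 for PSBY and 0.00179 for NdhS, 1843 probes passed, and no call of the 5 genes changed. Leaving out 1 array gave log2 differences of -1.61 to -1.40 for LHB1B2, -2.82 to -2.54 for PSAN, 1.67 to 1.81 for PSBW, -4.65 to -3.60 for PSBY and 1.25 to 1.48 for NdhS, and all stayed past the threshold. The count of probes passing was 1946 (1004 higher and 942 lower), 2473 without scaling (2188 higher and 285 lower), 1981 after dividing by the median (789 higher and 1192 lower) and 936 under cyclic loess (399 higher and 537 lower). Among probes above 0 on all arrays 523 were higher, fewer probes being tested there. On quantile-normalized values the widest log2 change of a ratio was that of PSBW over PSBY (5.75). Rank differences kept their direction under every alternative run. Of the within-array ratios, the log2 change of LHB1B2 over PSAN was 0.35 in replicates 1 and 2 alone and 0.71 in 3 and 4 alone, and that of PSAN over PSBY turned to -0.06 in replicates 1 and 2 alone. On quantile-normalized values LHB1B2 over PSBY was 2.49 and passed (exact permutation p = 0.0286), and PSBW over NdhS turned to 0.41. Relative to the median of neighbours with exactly 1 gene the log2 ratio was -0.75 for LHB1B2 (-0.19 with all neighbours), -1.35 for PSAN (-0.35), 2.26 for PSBW (3.27) and -1.66 for PSBY (-0.95). These sets were mostly dimmer than the gene at 3 weeks, with 4 of 29 neighbours brighter for PSAN and for PSBW, and 8 of 33 for PSBY. Relative to neighbours by mean rank over both ages, the log2 ratio was -0.41 for LHB1B2, -0.99 for PSAN and -5.34 for PSBY. For PSBW it was then 2.68 and for NdhS 1.64. These neighbours were chosen after seeing the data, and those of PSBY were dimmer than PSBY at 3 weeks. The rank difference of PSBY was -37.8 percentile points over all arrays, -9.83 in replicates 1 and 2 alone and -65.8 in 3 and 4 alone, and setting these beside its neighbours was also chosen after seeing the data. The cause of these changes was not tested. Exact tests with 1 array left out, with the block or within 2 arrays an age cannot reach the threshold.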
